A study of Arabidopsis thaliana with 12 samples.

Results

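SPPA (AT1G73990) encodes a serine protease of Arabidopsis thaliana, and its transcript is measured here by 1 of the 3439 probes of a gene array. The probe was chosen by its identity in the platform's annotation, which gives it SPPA and no other gene. It is among 692 probes annotated with 1 gene, which cover 691 genes. The 6 recovered samples came from plants that stood for 1 h in light of 1000 µE and were then returned to 80 µE for 48 h. The 6 control samples came from plants kept in light of 80 µE. All 12 samples are wild type of the ecotype Columbia 0, measured from total RNA, and neither plant part nor age is known from the labels. In the titles the controls carry the time 0 h, so the light stress cannot be told apart from the later time of harvest. No sample was taken during the high light, so the response of SPPA to the stress itself was not measured in these samples.

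SPPA proteases are named after the bacterial signal peptide peptidase A, also called protease IV, which in Escherichia coli degrades signal peptides once they have been cut from exported proteins. In Arabidopsis the protein sits at the thylakoid membrane of the chloroplast, where the light reactions take place, and its amount was described as increasing under strong light. Thylakoid proteases as a class remove light-damaged or surplus proteins of the photosynthetic machinery and so take part in its repair and its adjustment to changing light. The comparison asks whether the SPPA transcript differed from the control level 2 days after a short exposure to strong light.

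The data show an SPPA signal near the middle of the array in both groups, with no difference between the groups that exceeded the spread among samples. The mean log2 intensity after quantile normalisation was -2.31 ± 0.95 in recovered samples and -1.74 ± 1.02 in control samples (SD, n = 6 each). On the log2 scale the difference, recovered minus control, was -0.56 (SE 0.53, 95% interval -1.70 to 0.57). As a ratio of recovered over control this was 0.676, with an interval of 0.308 to 1.49. limma, fitted without pairing by replicate number, gave it an adjusted p of 0.606 over all 3177 tested probes. Of these, 69, or 2.17%, were called at an adjusted p under 0.05. SPPA was not called. The interval reaches from a level 3.25-fold lower to one 1.49-fold higher in recovered plants. A change of a size within these bounds could not be told from no change with these arrays. The bounds are not adjusted for the number of probes tested and are not the limit for a call. With adjacent replicate numbers averaged, they were 4.05-fold lower and 1.85-fold higher. Bulk samples cannot tell fewer cells with the transcript from less transcript per cell.

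Deposited intensities, in arbitrary units with a maximum of 100 in 11 of the 12 samples, show the same wide spread before any rescaling. In the recovered samples SPPA stood at 0.664, 0.362, 0.161, 0.202, 0.167 and 0.143 for replicate numbers 1 to 6. In the control samples it stood at 0.289, 0.193, 0.386, 0.545, 0.304 and 0.0414 for the same numbers. The highest value of all was recovered 1 and the lowest was control 6, and the groups overlapped over most of their range. The means were 0.283 ± 0.203 in recovered samples and 0.293 ± 0.171 in control samples (SD, n = 6 each), and the medians were 0.184 in recovered and 0.297 in control samples. The probe read above 0 in every sample, as did 70.8% of all probes. How far these values lie above the array's own background is not known, since no label or header gives that background.

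After quantile normalisation, which gives every sample the same distribution of intensities, the log2 values of SPPA were -1.12, -2.13, -1.998, -1.71, -3.33 and -3.57 in recovered samples 1 to 6. They were -1.74, -2.21, -1.11, -0.67, -1.22 and -3.51 in control samples 1 to 6. Recovered 5 and 6 and control 6 form the low end, and control 4 is the highest. The groups overlapped, where 4.75% of the tested probes had groups that did not. The lowest of these 12 values still lay 1.38 above the log2 floor of -4.95 that was set for dim probes. On the deposited scale control 6 lay closer to that floor, at a log2 value of -4.59. No SPPA value rests on the floor on either scale.

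**Figure D1:**
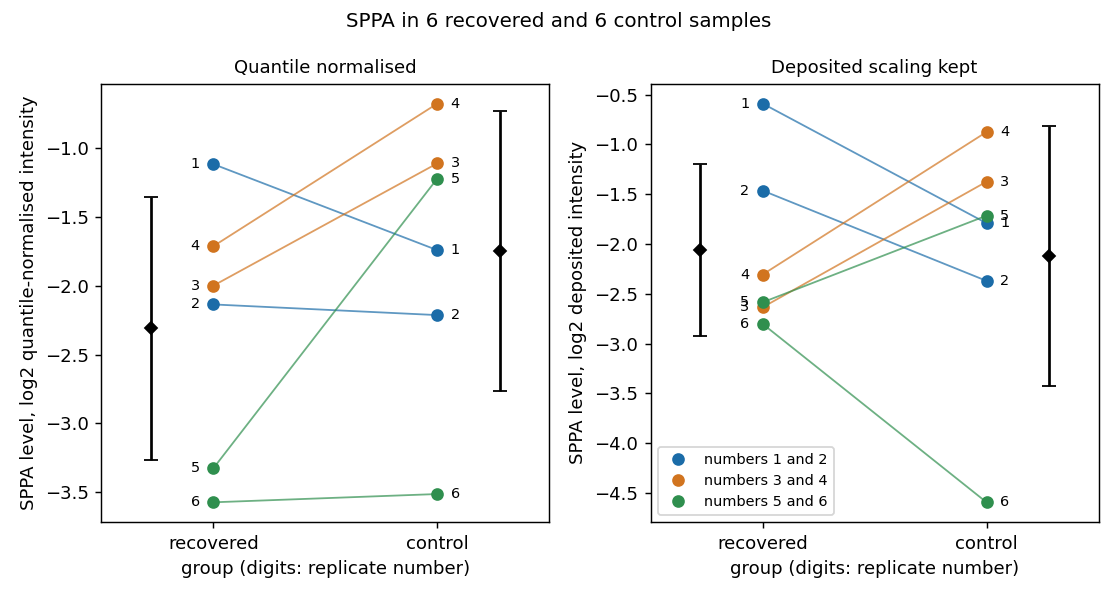
SPPA level in each sample as log2 intensity, quantile normalised on the left and with the deposited scaling kept on the right, for the 6 recovered and the 6 control samples. Lines join samples of the same replicate number, colours mark adjacent numbers, and black diamonds with bars give the group mean and SD (n = 6). The lines cross, and the order of the group means turns between the panels, with means of -2.31 for recovered and -1.74 for control on the left and of -2.06 for recovered and -2.12 for control on the right.

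The rank of the probe within its own sample does not depend on how the arrays are scaled to each other. A rank describes the probe's brightness and does not compare transcript amounts between genes, because probes differ in how they bind. Counted from the dimmest, SPPA stood at the percentiles 65.8, 41.1, 44.2, 51.3, 21.0 and 18.4 of all 3439 probes in recovered samples 1 to 6. It stood at 50.5, 39.4, 65.9, 75.0, 63.2 and 19.0 in control samples 1 to 6. In terms of rank from the brightest probe this spans 1178 in recovered 1 to 2806 in recovered 6, and 861 in control 4 to 2785 in control 6. SPPA was thus a probe of middle brightness on average, well below the middle in recovered 5, recovered 6 and control 6 and well above it in control 3, control 4, control 5 and recovered 1. The mean percentile was 40.3 ± 18.1 in recovered samples and 52.2 ± 20.5 in control samples (SD, n = 6 each). The difference of -11.9 percentile points was within the spread between samples (two-sided exact permutation test, p = 0.325).

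**Figure D2:**
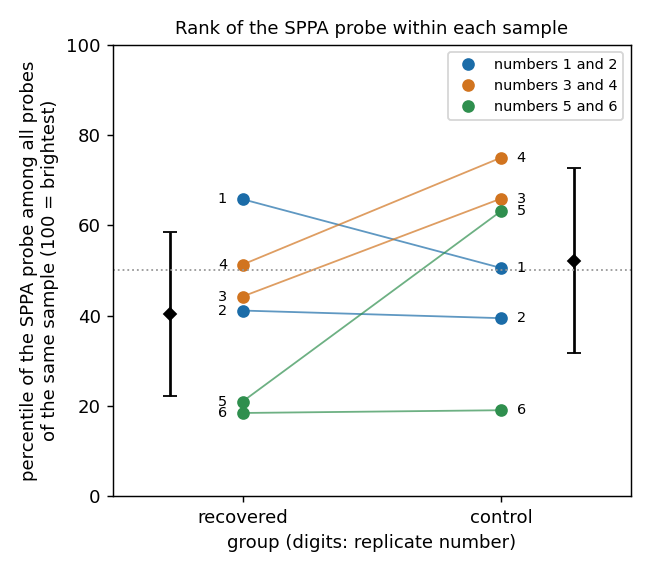
Percentile of the SPPA probe among all 3439 probes of the same sample, from 0 for the dimmest to 100 for the brightest, in recovered and control samples. Lines join the same replicate number, colours mark adjacent numbers, diamonds with bars are means and SD (n = 6), and the dotted line marks the middle of the array. Recovered 5, recovered 6 and control 6 sit between 18.4 and 21.0, and the other 9 samples between 39.4 and 75.0.

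Set against the control of the same replicate number, SPPA did not move in a common direction. On the quantile-normalised log2 scale, recovered minus control was 0.63 for number 1 and 0.08 for number 2. It was -0.89 for number 3, -1.04 for number 4, -2.11 for number 5 and -0.06 for number 6. SPPA was lower in the recovered sample in 4 of 6 pairs, a count found for 18.5% of the tested probes. That count rests on number 6, which lay above 0 under the other scalings, at 1.79 on the deposited scale, 0.71 once medians were aligned and 0.56 after cyclic loess. SPPA was lower in 3 of 6 pairs under each of those, and with the deposited scaling number 6 had the largest difference of all. On the quantile-normalised scale, the differences of numbers 3, 4 and 5 were the largest in size, all with the recovered sample lower. The largest on that scale, for number 5, was a 4.31-fold lower level in the recovered sample, while number 6 of the same adjacent pair differed by 1.04-fold. With the deposited scaling kept, numbers 1, 2 and 6 were at 1.20, 0.91 and 1.79, and numbers 3, 4 and 5 at -1.26, -1.43 and -0.87. A two-sided exact sign-flip test over the 6 pairs gave p = 0.219 for the mean difference, where the smallest p it can give is 0.0313. Adjusted over 2 of the exact tests, this one over pairs and the permutation test of ranks over 12 samples, both p-values were 0.325. With the replicate number as a block in limma the SE was 0.36 and the interval -1.40 to 0.27, and SPPA was not called (adjusted p = 0.368), with 2.68% of the probes called in that fit.

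Adjacent replicate numbers (1 and 2, 3 and 4, 5 and 6) resembled each other far more than other samples of their group. Across the tested probes, which do not count as independent replicates, Pearson's r was 0.854 to 0.939 for adjacent numbers and 0.650 to 0.794 for other samples of a group. Between recovered and control samples r was 0.611 to 0.859, so its upper end reached the range of adjacent numbers. No label says whether adjacent numbers are repeat readings of the same material, in which case the 6 samples per group hold only 3 separate ones. With adjacent numbers averaged, SPPA was at -1.62 in recovered and -1.98 in control samples for numbers 1 and 2. It was at -1.85 in recovered and -0.89 in control samples for numbers 3 and 4, and at -3.45 in recovered and -2.37 in control samples for numbers 5 and 6. The difference was therefore positive in the first of these sets, at 0.35, and negative in the others, at -0.96 and -1.08. limma on these averages gave an SE of 0.63 and an interval of -2.02 to 0.89 (adjusted p = 0.892), in a fit that called 0% of the probes. A two-sided exact sign-flip test over the 3 averaged differences gave p = 0.500, and it cannot give less than 0.250.

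Adjacent samples were not always close for SPPA itself. The gap between adjacent log2 values was 1.02 for recovered 1 and 2, 0.29 for recovered 3 and 4, and 0.25 for recovered 5 and 6. In the controls it was 0.47 for 1 and 2, 0.43 for 3 and 4, and 2.29 for 5 and 6. The median gap between control 5 and 6 over all tested probes was 0.39, and 4.69% of the probes had a larger gap there than SPPA. For the other 5 sets of adjacent samples between 18.1% and 57.7% of the probes had a larger gap. SPPA was thus read at very different levels in control 5 and control 6. Without control 6 the difference between the groups was -0.92 (SE 0.46, adjusted p = 0.322), against -0.56 with it, and without recovered 6 it was -0.31 (adjusted p = 0.808).

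The largest share of the variation in the 12 SPPA values lay between sets of adjacent replicate numbers, and the smallest between the groups. The shares below are not adjusted for how many sets or groups each of them compares. Of the total sum of squares over the 12 log2 values, 8.97% lay between recovered and control samples and 47.0% between the 3 sets of adjacent numbers in a way shared by both groups. A further 11.9% lay in differences between the sets in how recovered and control samples compared, and 32.1% lay within adjacent samples. Over all tested probes the medians of these shares were 10.4%, 32.9%, 17.5% and 16.9%. The pooled SD within groups was 0.986 for SPPA and 0.753 for the median probe, and 30.4% of the probes had a larger one. Ordered by p, SPPA stood at place 1587 of the 3177 tested probes.

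The sign of the SPPA difference depended on the scaling of the arrays. With the deposited scaling kept, the difference was 0.06 (SE 0.59, adjusted p = 0.967), with means of -2.06 in recovered and -2.12 in control samples. Under that scaling the median difference of all tested probes was 0.47, so SPPA lay below the median probe, as it did in the quantile-normalised data with their median of 0.00396. With array medians aligned the difference was -0.50 (adjusted p = 0.684), and with cyclic loess it was -0.56 (adjusted p = 0.662). The share of tested probes with a difference below that of SPPA was 18.9% with quantile normalisation, 27.1% with the deposited scaling, 25.9% with medians aligned and 18.4% with cyclic loess. Relative to the other probes of the array SPPA was thus placed on the lower side under each of these 4 scalings, without a call under any.

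**Figure D3:**
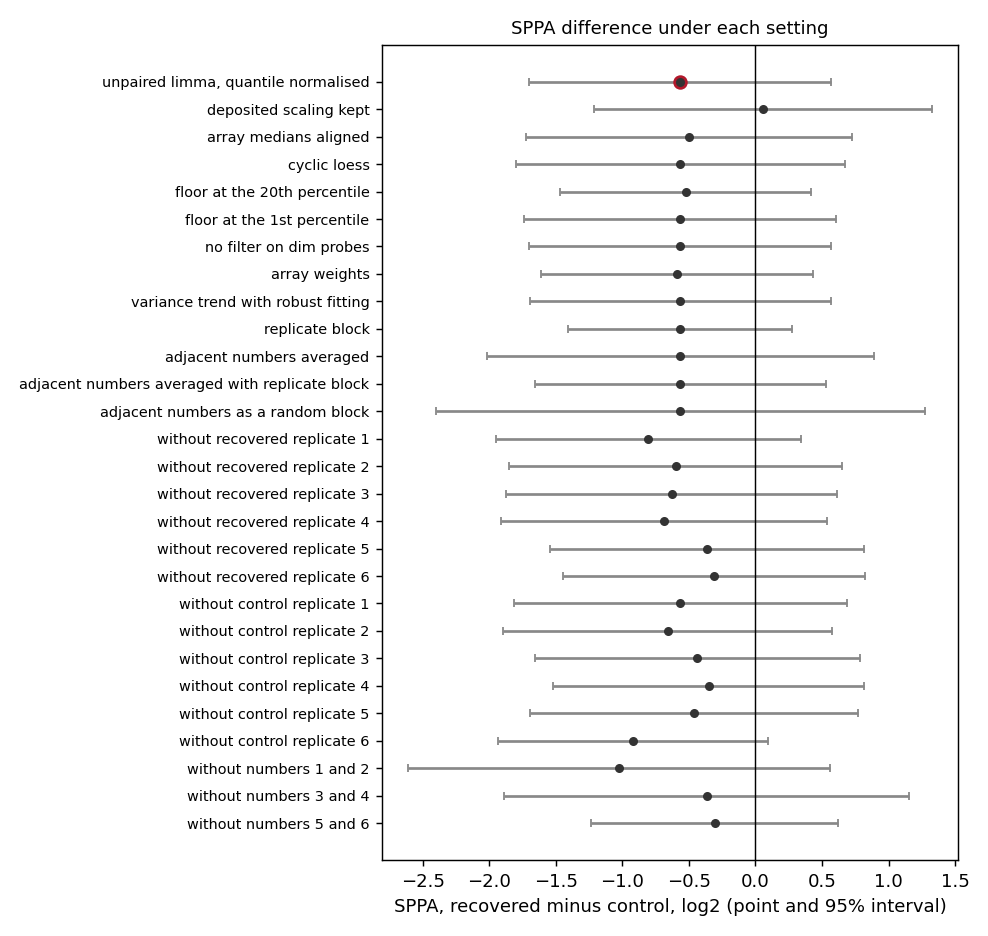
Difference of SPPA between recovered and control samples, recovered minus control on the log2 scale, with 95% interval from limma, for the unpaired fit on quantile-normalised values (top, red) and for each of 27 alternative settings. All intervals include 0. The values run from -1.02 without numbers 1 and 2 to 0.06 with the deposited scaling kept.

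SPPA belongs to the plastid proteases, a set that also holds the FtsH and Deg proteases of the thylakoid, the stromal Clp system and the peptidases that process imported proteins. Of the 53 members listed, 6 had a probe of their own and all 6 were tested. limma called 0 of these 6 in either direction, where 0.881% of all probes were called higher and 1.29% lower. Of the 6, 1 had an unadjusted limma p under 0.05, as did 580 of the 3177 tested probes. Of the 6 differences 3 lay above 0 and 3 below, with a median of 0.11 on the log2 scale, against 0.00396 for all tested probes. The best-known thylakoid proteases, FTSH2 and FTSH5 and the DEG proteases, had no probe of their own and were not analysed here.

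Among them, FTSHI3 (AT3G02450), a relative of the FtsH proteases thought to lack protease activity, was higher in the recovered sample in 6 of 6 pairs, a count found for 8.66% of the tested probes. Its log2 level averaged -1.25 ± 0.57 in recovered and -1.91 ± 0.58 in control samples (SD, n = 6 each), a difference of 0.66 (SE 0.34, adjusted p = 0.331 by limma). CGEP (AT2G47390) is a glutamyl endopeptidase of the stroma. After quantile normalisation it was lower in the recovered sample in 6 of 6 pairs, a count found for 9.88% of the probes. It averaged -1.38 ± 0.30 in recovered and -0.88 ± 0.27 in control samples (SD, n = 6 each). Its difference of -0.50 (SE 0.22) was the member with an unadjusted limma p under 0.05, and it was not called (adjusted p = 0.258 by limma). CGEP varied far less between samples than SPPA did.

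The Clp system, the main protease of the stroma, was represented by the substrate adaptors CLPS1 (AT1G68660) and CLPF (AT2G03390). CLPS1 had a mean difference of -0.45 (SE 0.72, adjusted p = 0.783 by limma). After quantile normalisation it was lower in the recovered sample in 6 of 6 pairs, a count found for 9.88% of the probes. CLPS1 was lowest with numbers 5 and 6 in both groups, at -3.03 and -2.87 in recovered 5 and 6 and at -2.97 and -1.82 in control 5 and 6, while SPPA was low in control 6 and not in control 5. Without control 5 the mean difference of CLPS1 was -0.89, while without recovered 5 it was -0.08 and without recovered 6 it was -0.11. CLPF had a mean difference of 0.75 (SE 0.38, adjusted p = 0.322 by limma). It was lower in the recovered sample for numbers 3 and 4 and higher for the other numbers. CTPA1 (AT5G46390), of the family of C-terminal processing proteases, had a mean difference of 1.23 (SE 0.75, adjusted p = 0.410 by limma). It was lower in the recovered sample for number 5 and higher for the other numbers, and 5 recovered and 4 control samples were above the floor. With the deposited scaling kept, the mean difference of CLPS1 turned to 0.08 while that of CGEP stayed below 0 at -0.11. Under that scaling both genes were higher in the recovered sample for numbers 1, 2, 5 and 6. They were lower for numbers 3 and 4 alone, so their counts of 6 of 6 did not hold there. FTSHI3 was then lower for number 3, at 0.158 in recovered 3 and 0.167 in control 3. Whether SPPA differed from these genes was not tested.

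**Figure D4:**
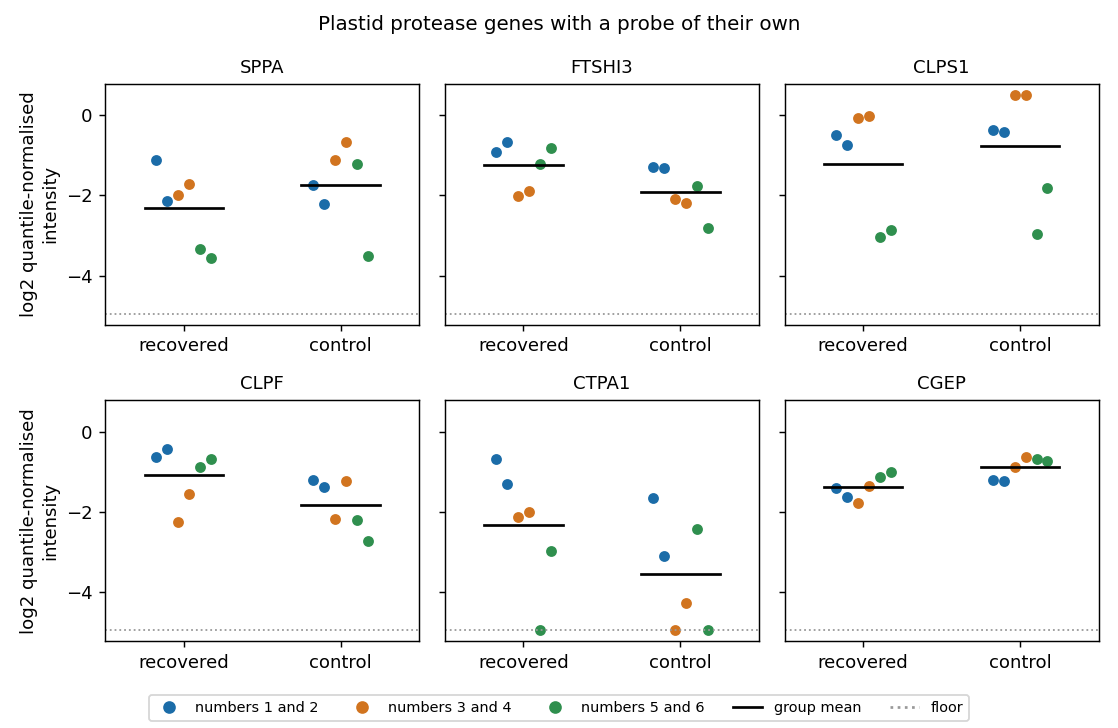
Log2 quantile-normalised intensity of the 6 plastid protease genes with a probe of their own, with recovered samples left of control samples in each panel. Points are samples ordered by replicate number and coloured by adjacent numbers, black bars are group means (n = 6) and the dotted line is the floor. In each panel the groups overlap, and in SPPA the lowest values are recovered 5, recovered 6 and control 6.

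Probes with a pattern like that of SPPA over the 12 samples were ranked by Pearson's r on the log2 values. Over all 3176 other tested probes r had a median of -0.01 and a maximum of 0.90, and 2.30% of the probes lay above 0.7. These samples share replicate numbers, arrays and adjacent readings, so r describes likeness over 12 points that are not independent. Among the 630 other tested probes with 1 gene, the closest was AT3G54930 at r = 0.87, followed by AT1G24360 at 0.85 and AT1G65090 at 0.82. Next came PIFI (AT3G15840), named for the post-illumination increase of chlorophyll fluorescence, at 0.81, AT2G38570 at 0.81 and AT2G38550 at 0.81. None of these genes belongs to the listed proteases, of which only 6, SPPA included, had a probe of their own. With so few of them among the 630 candidates, nothing about the proteases follows from this.

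For these 6 genes r to SPPA was 0.78 to 0.86 with group means removed. Only 8.97% of the variation of SPPA lay between the groups, so this step left most of it in place. AT3G54930 was low with numbers 5 and 6 in both groups, unlike PIFI and AT2G38570, which were at -2.39 and -1.63 in control 5. AT3G54930 was at -1.45 and -2.40 in recovered 5 and 6 and at -1.09 and -2.07 in control 5 and 6, the lowest values of both groups. In control 3 and 4 it was at 0.62 and 0.48, its highest values, as SPPA was highest in the same samples among the controls. With group means removed, AT3G54930 was at r = 0.86 and AT1G24360 at 0.86, so the likeness was about as close with no difference between the groups in it. With adjacent numbers averaged to 6 points, AT2G38550 came first at 0.99, while PIFI dropped to place 31 and AT2G38570 to place 29 of 630. In that setting 3 of the 6 genes stayed among the closest 6. PIFI, AT1G24360 and AT2G38570 had samples at the floor, and of PIFI 4 recovered and 5 control samples lay above it. None of the 6 genes was called, with differences from -0.74 to -0.24 on the log2 scale, and from -1.08 to 0.15 with single samples left out.

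**Figure D5:**
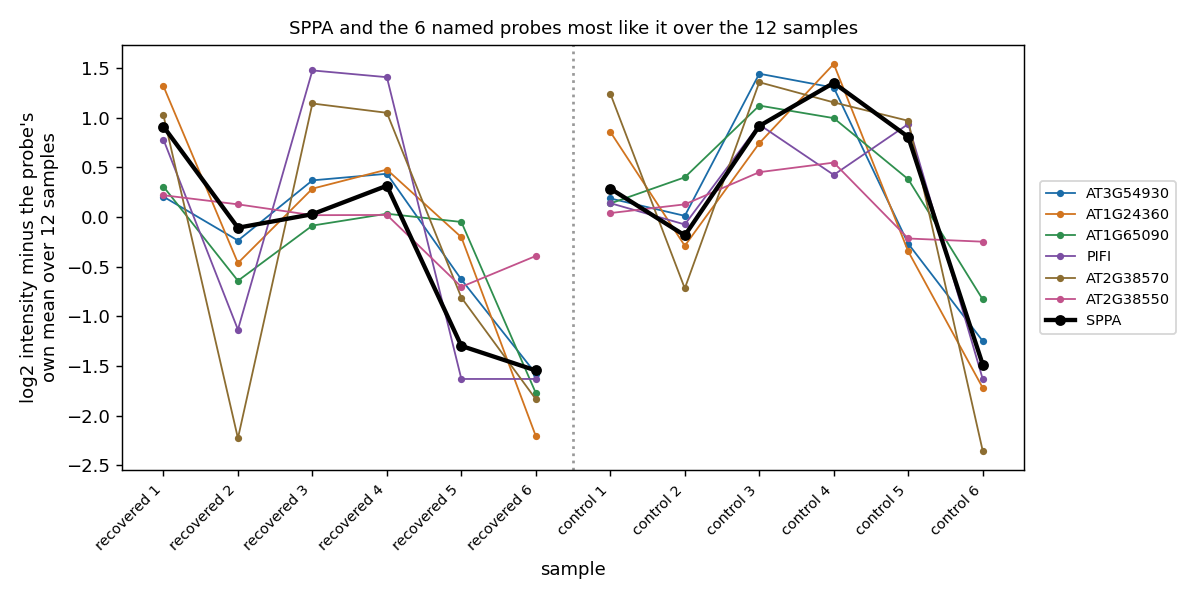
Log2 intensity of SPPA (black) and of the 6 named probes most like it, each minus its own mean over the 12 samples, across the recovered samples and then the control samples. The probes were chosen for this likeness. All of the lines lie below 0 in recovered 6 and control 6 and above 0 in control 3 and 4, with r to SPPA between 0.81 and 0.87.

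Over the whole series the sum of deposited intensities ranged from 3016 to 3406 in recovered samples and from 2874 to 3288 in control samples. The share of probes at 0 was 4.97% to 7.97% in recovered samples and 6.63% to 11.1% in control samples, and it was highest in control 5 and 6. The log2 median of the samples ranged from -2.35 to -1.13. On the linear deposited scale the medians were 0.426 to 0.458 in recovered 1, 2, 5 and 6. They were 0.196 to 0.197 in recovered 3 and 4, and 0.200 to 0.284 in the control samples. Precision is limited by the small number of arrays. Nothing in the labels says whether the samples within a group are separate plants, so the p-values reflect sample-to-sample spread that may be technical. Of 7 green leaf genes listed, 4 had a probe of their own. The antenna gene LHB1B2 stood at a log2 level of 4.19 ± 0.20 in recovered and 3.95 ± 0.23 in control samples (SD, n = 6 each). PSAN stood at 2.83 ± 0.49 in recovered and 2.80 ± 0.38 in control samples. Both were far above the median of the arrays. SBPASE was much dimmer and more variable, at -1.15 ± 1.17 in recovered and -1.22 ± 1.68 in control samples. limma called 0 of these 4 genes. PRK, 1 of the 4, was at 0.42 ± 0.13 in recovered and 1.08 ± 0.39 in control samples, a difference of -0.67. It had an unadjusted limma p under 0.05, as did 580 of the 3177 tested probes. None of the 4 listed root genes had a probe of its own.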

How the data were processed

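Transcript levels were measured on arrays in 12 samples, grouped by their titles. The deposited table holds linear intensity values, 1 per probe and sample. For background correction and scaling the sources used here give no description. Per-sample columns left unused numbered 0. Values were quantile normalised, floored at 0.0322 (the 5th percentile of positive deposited values) and log2 transformed. Probes with at least 6 deposited values above the floor were tested (3177 kept, 262 left out). limma 3.58.1 in R 4.3.3 (lmFit, eBayes) compared recovered minus control without a block over all tested probes, with two-sided Benjamini-Hochberg adjusted p-values called under 0.05. Exact permutation and sign-flip tests were run for SPPA alone. The fit was tested on simulated data with samples drawn independently of each other. That simulation held no likeness between adjacent or same numbers, so it does not cover this feature of the data.

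Named were SPPA, list members with a probe of their own and the 6 tested probes with 1 gene most like SPPA by Pearson's r. Members, lists and tests were chosen with earlier results of these data known. List names such as FTSHI3 are common names. The RefSeq table (TAIR10.1) matched all but 2 of the 692 probes with 1 gene. The array's build was not given, so no coordinates are printed, and probe or protein sequences were not used here. After group means were removed, samples with the same number correlated at 0.111 to 0.487 in all 6 pairs. In the other group, each sample correlated most with the sample of its own number. The numbers were treated as pairs in the sign-flip tests and the blocked fit. They were not treated as pairs in the limma fit without a block or in the permutation test of ranks. The pairing rests on the data and the titles. Alternatives covered scaling, floor, filter, weights, blocks and omitted samples.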

Additional observations from a re-analysis of the deposited data

Results flagged for a closer look

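Of 36 sets of 6 values checked for a sample far from the rest of its group, 1 stood out, where chance gives about 1.8. SBPASE, a Calvin cycle gene from the list of green leaf markers, was at a log2 level of -4.60 in control 6, against -1.004 in the next lowest control, a gap of 0.811 of the whole range among the controls. SPPA was also at its lowest control value in control 6, at -3.51, where the gap took up 0.458 of the range, which is under the critical value of 0.625.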

How the results depend on the processing

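SPPA was not called in any of the 27 alternative fits (adjusted p = 0.322 to 0.967), and its difference lay below 0 in 26 of them. It was 0.0560 with the deposited scaling kept, and that scaling leaves the shift between arrays in the values. Leaving out 1 sample at a time gave -0.92 to -0.31 (adjusted p = 0.322 to 0.817). With the replicate number as a block it was -0.56 (adjusted p = 0.368), and the block changed no call of a named gene. The sign-flip mean of the pairs was also 0.0560 with the deposited scaling kept (exact p = 0.938). Of the 6 probes most like SPPA, 3 stayed among the closest 6 with Spearman's rho, 3 with adjacent numbers averaged, 3 with group means removed and 3 with the deposited scaling kept. The count of 69 called probes, 28 higher and 41 lower, became 35 (29 and 6) with the deposited scaling kept, 67 (14 and 53) with medians aligned, 121 with the floor at the 20th percentile, 239 with array weights and 109 with a variance trend and robust fitting. It was 0 with adjacent numbers averaged, with or without their number as a block (164 and 293 probes at an unadjusted p under 0.05), and 1 with adjacent numbers as a random block. Without numbers 1 and 2 it was 15, without 3 and 4 it was 331 and without 5 and 6 it was 2, and without single samples it was 21 to 68. The cause of these changes was not tested.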

Other observations

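Some members of the lists share a probe with other genes and cannot be read apart. For the plastid proteases 5 such probes were tested and limma called 0 of them (lowest adjusted p = 0.106). For the 14 light-stress genes listed, which include the ELIP genes for early light-induced proteins, no member had a probe of its own. The 2 probes shared between members of the light-harvesting-like LIL3 pair and no other listed gene were tested, and limma called 0 of them (lowest adjusted p = 0.521).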
